A study of Saccharina japonica with 9 samples.

Results

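The nuclear CHH sites of *Saccharina japonica* were described in 9 whole-genome bisulfite sequencing (WGBS) libraries, with the neighbours of each site on its own and on the opposite DNA strand. A CHH site is a cytosine followed by 2 bases that are not G (H is A, C or T). The sites were all entries of context CHH on nuclear scaffolds in the lists of methylated cytosines (mCs) that the authors deposited, and chloroplast and mitochondrial entries were left out. There were 18867882 such entries among 33740437 listed mCs, 33480993 of them nuclear. They stood at 16963326 distinct positions on 9613 scaffolds, of which 89.9% were listed in a single library and 5 in all 9 libraries.

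*S. japonica* is a kelp whose life cycle alternates between a large diploid sporophyte and microscopic haploid female and male gametophytes. The study measured DNA methylation as single bases in these life-cycle stages. Genomic DNA came from the entire body of strain Ye-c12: sporophytes (SP) aged 4 months, female gametophytes (FG) aged 2 months and male gametophytes (MG) aged 2 months, with 3 libraries a stage and no treatment named in the labels. All libraries shared the double bisulfite conversion and the lambda DNA spiked in, so the stages differed in ploidy and in age as well as in form.

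In bisulfite sequencing an unmethylated cytosine is read as thymine, and a cytosine still read as cytosine counts as methylated. CpG and CHG sites are mirrored on the opposite strand, so a maintenance enzyme can copy their methylation after replication. A CHH site has no such mirror. In land plants its methylation is set anew after replication, by DRM enzymes guided by small RNAs and by chromomethylases, and is known mainly from transposons and repeats. Kelp sex is set by U and V chromosomes: a female gametophyte carries the U, a male gametophyte the V, and a sporophyte both.

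The libraries listed unequal numbers of CHH sites. SP 1, 2 and 3 listed 908354, 196666 and 224362 CHH sites. FG 1, 2 and 3 listed 2559538, 1984086 and 3373742, and MG 1, 2 and 3 listed 2865905, 3005529 and 3749700. The gametophyte libraries thus held more sites than any SP library, and SP 1 held over 4 times as many as SP 2 or SP 3. The median coverage of a listed site was 7 to 10 reads in every library and overlapped between stages (exact permutation p = 1 for FG and 0.5 for MG against SP), the lowest was 5 reads, and 96.2 to 98.9% of the sites rested on 1 methylated read. Reads covering the sites summed to 1871897 to 12242456 in SP and to 19459174 to 47947077 in the gametophytes. The 95% Wilson interval of the share of all CHH sites of a library with a neighbour within 50 bp reached at most 0.103 percentage points to either side. Shares over smaller classes have wider intervals, and intervals cover counting error only. The study describes its libraries as biological replicates, but the labels do not say that they came from separate cultures, so p-values measure the spread between these libraries, which may be technical.

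Several libraries stood apart from their stage. SP 2 and SP 3 differed from SP 1 in the base before the site, described next, and results on SP are therefore given with and without them. The share of CHH sites on the plus strand was 50.5 to 50.7% in SP 2, SP 3, FG 3 and MG 3, and 49.96 to 50.05% in the other 5 libraries. This division crosses the stages, and the labels name no batch. No position was listed more than 1 time within a library.

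The base before a CHH site was G in nearly all sites of SP 2 and SP 3 where it could be read. Bases were read from the lists themselves, since a listed plus-strand cytosine shows a C and a listed minus-strand cytosine shows a G. Each library was read against gametophyte libraries of the other stages. The base before the site was known as C or G for 3.97 to 15.8% of sites, and A or T cannot be told from an unlisted base. G made up 51.2%, 97.6% and 98.1% of the known bases in SP 1, 2 and 3 (71692, 30523 and 35447 bases; 95% Wilson interval for SP 1, 50.9 to 51.6%). It made up 41.2%, 39.9% and 40.1% in FG 1, 2 and 3, and 41.9%, 41.7% and 39.6% in MG 1, 2 and 3. All SP libraries lay above all gametophyte libraries, and SP 1 lay closer to the gametophytes than to SP 2 and SP 3. The mean was 82.3% ± 26.9 (SD, n = 3) in SP, against 40.4% ± 0.695 in FG and 41.0% ± 1.26 in MG. Each difference from SP gave p = 0.1 in an exact two-sided permutation test, the smallest p that 3 libraries against 3 allow (Benjamini-Hochberg adjusted p = 0.164 over 18 tests).

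No other base near the site reached such a share. At 2 bases before the site, G made up 52.7% and 52.5% in SP 2 and SP 3, against 41.2 to 46.3% in the other 7 libraries. At the next base out, all 9 libraries lay between 47.2 and 50.4%. After the site the first 2 bases were never G, as the definition of CHH requires, and the third was G in 46.8 to 48.4% in all 9 libraries. The base before the site was also known more often in SP 2 and SP 3 (15.5% and 15.8% of sites) than the other bases within 6 of it, which were known for 6.92 to 8.70% of sites. In SP 1 these shares lay between 5.75 and 8.35% on every base.

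**Figure D1:**
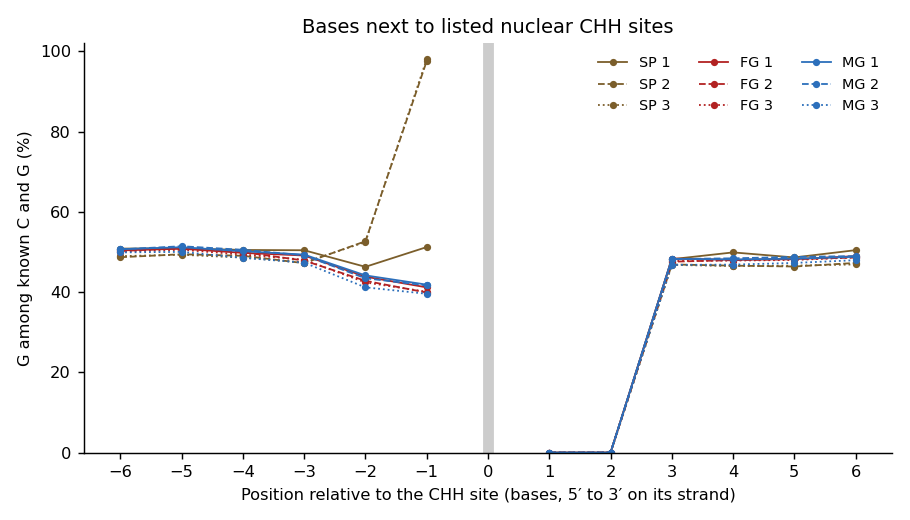
G as a share of the known C and G (percent) at each position within 6 bases of listed nuclear CHH sites, counted 5′ to 3′ on the strand of the site, with 1 line per library (colour: stage, line type: replicate). SP 2 and SP 3 reach 97.6% and 98.1% on the base before the site and lie near the other libraries elsewhere, and the 2 bases after the site hold no G in any library.

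The same held in every class of CHH sites examined in SP 2 and SP 3 with more than 100 known bases. G made up 97.5% and 98.1% of the known bases before sites with 1 methylated read and 99.8% and 99.3% before sites with 2 or more. It made up 96.6 to 98.4% in every class of coverage, and 97.4 to 98.3% on either strand. In the gametophytes, sites with 2 or more methylated reads had fewer G before them (29.3 to 33.2%) than sites with 1 (40.3 to 42.5%). CHG sites of SP 2 and SP 3 showed the same base (98.0% and 98.5% G), while their CpG sites did not (57.4% and 58.1%). In the other 7 libraries G preceded 43.6 to 54.2% of CHG and 38.5 to 49.3% of CpG sites.

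A G before a site leaves its mark on the nearest neighbours, because a cytosine that lies 1 or 2 bases before that G is by definition CpG or CHG, not CHH. Pairs of CHH sites were counted by distance and set against pairs over 500 and up to 1000 bp apart in the same library, which takes out the number of listed sites. This ratio is called the local excess. At 1 to 3 bp on the same strand the local excess was 5.49 in SP 1, 0.262 in SP 2 and 0.177 in SP 3, and 3.19 to 4.04 in the gametophytes. At 1 bp on the opposite strand it was 0.836, 10.2 and 9.98 in SP 1, 2 and 3, and 0.521 to 0.627 in the gametophytes. SP 2 and SP 3 were thus the lowest libraries on the same strand and the highest on the opposite one.

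Gametophyte sites were also counted around the SP sites. Those at 1 bp on the 5′ side are among the listed cytosines from which the base before the site was read. The counts on that side are therefore no separate evidence for that base. Around SP 2 and SP 3 sites, gametophyte CHH sites on the same strand had a local excess of 0.124 to 0.163 at 1 to 3 bp on the 5′ side and of 2.21 to 2.37 on the 3′ side (12 pairs of libraries). Around SP 1 sites the values were 1.78 to 1.88 and 2.16 to 2.30 (6 pairs). On the opposite strand at 1 bp on the 5′ side, gametophyte sites had a local excess of 4.49 to 5.18 around SP 2 and SP 3 sites and of 1.27 to 1.40 around SP 1 sites. What makes the lists of SP 2 and SP 3 hold these sites was not tested. Comparisons with SP are therefore also given at 4 to 50 bp, beyond the reach of that base, and with SP 1 alone.

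CHH sites had more CHH neighbours within 50 bp on their own strand than on the opposite strand in all 9 libraries. The share of sites with a same-strand neighbour was 18.0%, 5.77% and 6.08% in SP 1, 2 and 3. It was 42.7%, 36.6% and 45.6% in FG 1, 2 and 3, and 44.4%, 44.6% and 49.9% in MG 1, 2 and 3. The share with an opposite-strand neighbour was 12.6%, 3.85% and 4.18% for SP, 28.9%, 24.2% and 34.9% for FG, and 31.2%, 32.2% and 36.9% for MG. In each library the first share exceeded the second, and sites with neighbours on their own strand only (5.39 to 30.0% of sites) outnumbered sites with neighbours on the opposite strand only (3.48 to 17.5%).

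Counted as neighbours per site, the ratio of same-strand to opposite-strand neighbours was 2.18, 1.49 and 1.47 in SP 1, 2 and 3. It was 1.76, 1.80 and 1.54 in FG 1, 2 and 3, and 1.61, 1.63 and 1.61 in MG 1, 2 and 3. SP 1 was the highest library, and SP 2 and SP 3 were the lowest. The mean log2 ratio was 0.74 ± 0.18 (SD, n = 9), above 0 in 9 of 9 libraries (exact two-sided sign-flip permutation over libraries, p = 0.00391, the smallest it allows; adjusted p = 0.00725 over 13 tests). Within 10 bp the log2 ratio was below 0 in SP 2 and SP 3 (-0.0615 and -0.17) and was 1.07 to 1.59 in the other 7 libraries. At 4 to 50 bp the ratio was 2.05, 1.75 and 1.73 for the SP libraries, 1.65, 1.67 and 1.44 for FG, and 1.51, 1.53 and 1.51 for MG.

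**Figure D2:**
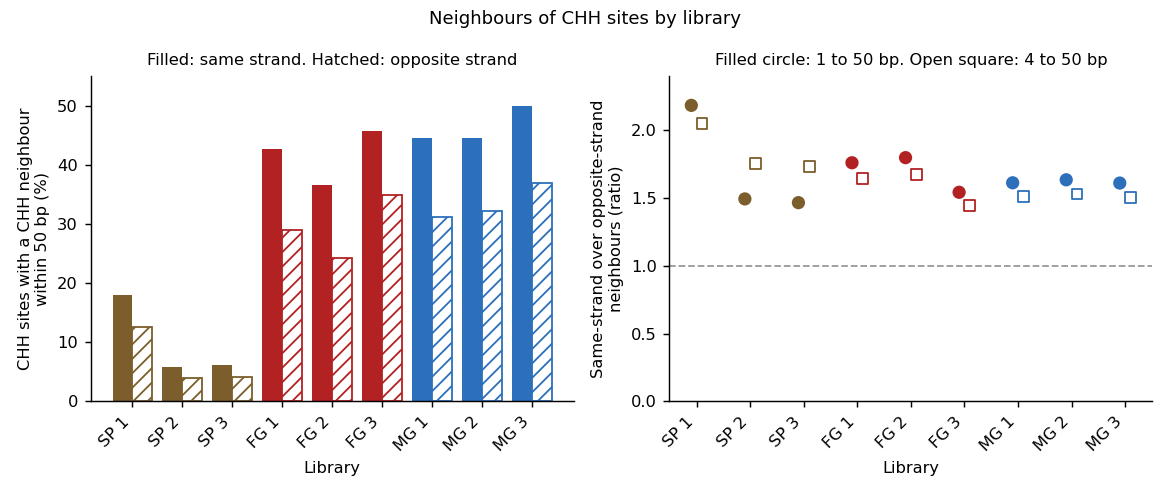
Left, percent of CHH sites with another CHH site within 50 bp on the same strand (filled bars) and on the opposite strand (hatched bars) in each library. Right, the ratio of same-strand to opposite-strand neighbours at 1 to 50 bp (filled circles) and at 4 to 50 bp (open squares), where the dashed line marks equal numbers: every library lies above it, between 1.44 and 2.18.

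The strand difference was present among the sites with least evidence. Taken over sites with 1 methylated read as the first of the pair, the ratio was 1.46 to 2.38 over the 9 libraries. In the gametophytes it was 1.45 to 1.56 for sites with 2 methylated reads, 1.23 to 1.34 for sites with 3 and 1.25 to 1.72 for sites with 4 or more. Neighbours themselves became more common with the number of methylated reads. In the gametophytes a same-strand neighbour stood beside 36.2 to 49.4% of sites with 1 methylated read, 49.2 to 60.3% with 2, 79.6 to 82.0% with 3 and 97.1 to 98.9% with 4 or more.

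Coverage moved with both measures. In the gametophytes, 30.2 to 37.9% of sites covered by 5 to 8 reads had a same-strand neighbour, against 91.6 to 94.3% of sites covered by over 50 reads. Their ratio of same-strand to opposite-strand neighbours was 1.53 to 1.96 at 5 to 8 reads, 1.66 to 2.12 at 9 to 12 reads and 1.21 to 1.33 over 50 reads. It was higher at 9 to 12 than at 5 to 8 reads in each gametophyte library, so that it did not fall steadily with coverage. In SP 1 the ratio was 2.61, 2.56 and 1.31 in these classes. Sites over 50 reads made up 0.824 to 2.31% of the CHH sites of a library. The part of coverage in the stage differences was not tested.

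The share of sites with a same-strand neighbour differed little with the base before the site. At 4 to 50 bp, sites of FG 1 had a same-strand neighbour in 46.8% of cases after G and in 47.2% after C, and those of MG 3 in 53.1% and 53.7%. The widest gap in this share within a library was that of SP 1, with 22.5% after G and 24.1% after C. The ratio of same-strand to opposite-strand neighbours at 4 to 50 bp was higher after G than after C in every library but FG 2 (1.39 and 1.40). In SP 3 it was 1.54 after G and 1.22 after C, the latter from 674 sites. The sites with a known base are those beside another listed site, so these shares lie above those of all sites.

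The local excess placed these neighbours at short range. Over 1 to 50 bp the same-strand excess was 3.32, 2.19 and 2.09 in SP 1, 2 and 3. It was 2.32, 2.37 and 1.96 for FG, and 2.07, 2.08 and 2.00 for MG. The opposite-strand excess was 1.56, 1.50 and 1.45 for SP, 1.33, 1.33 and 1.29 for FG, and 1.29, 1.28 and 1.27 for MG. Both were above 1 in all 9 libraries, and the log2 of the first over the second averaged 0.72 ± 0.18 (SD, n = 9; 9 of 9 libraries above 0, exact sign-flip permutation p = 0.00391).

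The same-strand excess fell with distance. Its mean over the 9 libraries was 2.68 ± 0.704 (SD) at 1 to 10 bp, 2.32 ± 0.424 at 11 to 25 bp and 2.07 ± 0.347 at 26 to 50 bp. It was 1.77 ± 0.251 at 51 to 100 bp, 1.32 ± 0.0944 beyond 200 and up to 250 bp and 1.13 ± 0.0269 beyond 250 and up to 500 bp. Only in SP 2 and SP 3 was the value at 1 to 10 bp (1.98 and 1.87) below that at 11 to 25 bp (2.44 and 2.32). The opposite-strand excess averaged 1.41 ± 0.415 at 1 to 10 bp and 1.10 ± 0.0230 beyond 250 and up to 500 bp. SP 2 and SP 3 had the highest values at 1 to 10 bp (2.12 and 2.14), above theirs at 11 to 25 bp (1.32 and 1.29). SP 1 and the gametophytes were lower at 1 to 10 bp (1.45 in SP 1, 1.13 to 1.21 in the gametophytes) than at 11 to 25 bp (1.60, and 1.30 to 1.37).

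The same-strand excess was larger within a library than between libraries. When the second site of the pair was taken from another library of the same stage, the excess over 1 to 50 bp was 1.32 to 1.47 on the same strand and 1.27 to 1.44 on the opposite strand. With the second site from another stage it was 1.32 to 1.42 and 1.26 to 1.34. The log2 of the own-library over the other-library excess was 0.70 ± 0.25 on the same strand (SD, n = 9; 9 of 9 libraries above 0, exact sign-flip permutation p = 0.00391) and 0.05 ± 0.07 on the opposite strand (8 of 9, p = 0.00781). The value on the opposite strand was 0.0192 without SP 1 (exact permutation p = 0.0156). It missed the threshold without SP 2 and SP 3 (0.0129, exact permutation p = 0.0625), at a coverage of at least 10 reads (0.0471, p = 0.105) and at 2 or more methylated reads (0.0674, p = 0.242). Between libraries of a stage, same strand over opposite strand came to 0.07 ± 0.05 on the log2 scale (8 of 9, exact permutation p = 0.0195). The strand difference was thus smaller between libraries than within them. Each pair of libraries of a stage entered the values of both of its libraries. The other-library values therefore overlap, and the permutation tests that use them treat them as separate. The lists do not name reads, so whether neighbouring sites of a library were methylated on the same read was not tested.

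**Figure D3:**
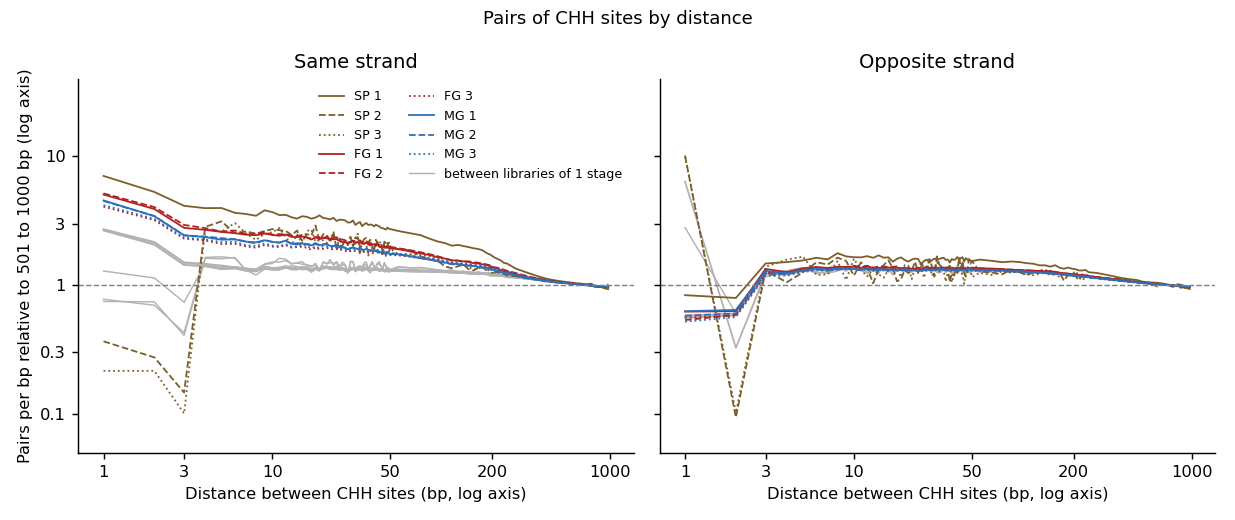
Pairs of CHH sites per bp relative to pairs over 500 and up to 1000 bp apart (log axis) against their distance in bp (log axis), same strand on the left and opposite strand on the right, with coloured lines for pairs within a library and grey lines for pairs between libraries of a stage. Over 4 to 50 bp the same-strand lines within libraries lie above the grey lines, and they approach 1 by 1000 bp, while at 1 to 3 bp SP 2 and SP 3 lie below 1 on the left, and at 1 bp they reach 10.2 and 9.98 on the right.

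Between stages, CHH neighbours were rarer in SP than in either gametophyte. The share of sites with a same-strand neighbour averaged 9.94% ± 6.96 in SP, 41.6% ± 4.61 in FG and 46.3% ± 3.10 in MG (SD, n = 3). With an opposite-strand neighbour it averaged 6.88% ± 4.95, 29.3% ± 5.37 and 33.4% ± 3.05. The SP libraries lay below all FG and all MG libraries on both measures, while FG and MG libraries overlapped. Each comparison with SP gave p = 0.1 (exact permutation, the smallest p possible; adjusted p = 0.277 over 36 tests), and MG against FG gave p = 0.3 and 0.4. With SP 1 as the only SP library, 18.0% and 12.6% remained below every gametophyte library. Between sites with 2 or more methylated reads the order was lost: SP 1 then had a same-strand neighbour at 49.99% of sites, SP 2 and SP 3 at 4.61% and 5.90%, and the gametophytes at 17.4 to 20.2%. SP 1 had 12600 such sites, and at 5040 of them a share of at least 0.5 of the reads was methylated. In the gametophytes 969 to 5699 sites reached that share, among 48691 to 142224 sites with 2 or more methylated reads. The part of these sites in the lost order was not tested.

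These shares are not scaled to the number of listed sites, and the measures that take it out gave another order. The part of that number in the stage differences of the shares was not tested. The same-strand excess averaged 2.53 ± 0.685 in SP, 2.22 ± 0.225 in FG and 2.05 ± 0.0421 in MG (SD, n = 3), so that MG lay below all SP libraries (p = 0.1) and FG overlapped SP (p = 0.8, exact permutation). The opposite-strand excess at 1 to 50 bp was 1.50 ± 0.0555 in SP, 1.31 ± 0.0216 in FG and 1.28 ± 0.0106 in MG, with SP above all gametophytes (exact permutation p = 0.1, adjusted p = 0.277). At 4 to 50 bp it was 1.59, 1.35 and 1.30 in SP 1, 2 and 3 and 1.31 to 1.36 in the gametophytes. There SP 3 lay below every gametophyte library and SP 2 within their range, with only SP 1 above. Neighbours per site at 1 to 50 bp were also scaled to 1000000 listed sites of the library. On the same strand they were 0.474, 0.309 and 0.289 for SP, 0.298, 0.314 and 0.242 for FG, and 0.265, 0.264 and 0.245 for MG. On the opposite strand they were 0.217, 0.207 and 0.197 for SP, 0.169, 0.175 and 0.157 for FG, and 0.164, 0.161 and 0.152 for MG. At this distance SP was therefore the highest stage on the opposite strand, without overlap, and overlapped FG on the same strand (exact permutation p = 0.1 and 0.5). These counts included pairs at 1 to 3 bp, within reach of the base before the site.

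The strand ratio itself did not separate the stages at 1 to 50 bp. Its log2 averaged 0.75 ± 0.32 in SP, 0.76 ± 0.12 in FG and 0.69 ± 0.01 in MG (SD, n = 3; exact permutation p = 1 for either gametophyte against SP). At 4 to 50 bp all SP libraries lay above all gametophyte libraries, by 0.21 over FG and by 0.28 over MG on the log2 scale (exact permutation p = 0.1, adjusted p = 0.164 over 18 tests). The choice of distance thus set whether SP overlapped the gametophytes.

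CHH sites were set against CHG and CpG sites of the same libraries. At 1 to 50 bp the log2 strand ratio of CHH minus that of CHG was 0.04 ± 0.24 (SD, n = 9; 7 of 9 above 0, exact sign-flip permutation p = 0.676), and CHH minus CpG was -0.12 ± 0.13 (1 of 9 above 0, p = 0.0234). CpG and CHG sites have their mirror cytosine 1 or 2 bp away on the opposite strand, so the comparison was repeated at 3 to 50 bp. There CHH was below CHG by 0.27 ± 0.17 and below CpG by 0.38 ± 0.11 in 9 of 9 libraries (exact permutation p = 0.00391, adjusted p = 0.00725). Starting at 3 bp also left out same-strand pairs at 1 and 2 bp, which CHH sites had and CHG sites cannot have. In SP 1 the mean number of same-strand neighbours went from 0.431 to 0.399 for CHH and stayed at 0.151 for CHG. Without SP 2 and SP 3, CHH lay above CHG at 1 to 50 bp by 0.15 (exact sign-flip permutation p = 0.0156). CHH minus CpG at 1 to 50 bp missed the threshold without SP 2 and SP 3 (-0.0789, exact permutation p = 0.0938), at a coverage of at most 50 reads (-0.0719, p = 0.184) and at 2 or more methylated reads (-0.15, p = 0.0820).

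Neighbours of CHH sites were not only CHH. In the gametophytes the same-strand excess around CHH sites was 1.75 to 2.17 for CpG neighbours, 1.81 to 2.20 for CHG and 1.96 to 2.37 for CHH. In SP 1 the values were 2.80, 3.07 and 3.32. SP 2 and SP 3 had the largest excess for CHG neighbours (2.32 and 2.21). On the opposite strand all libraries ranged from 1.08 to 1.30 for CpG and from 1.19 to 1.54 for CHG neighbours.

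CHH sites on the same strand with gaps of at most 50 bp were joined into runs. Runs of at least 5 sites held 2.98%, 0.00254% and 0.0178% of the CHH sites of SP 1, 2 and 3. They held 5.08%, 3.74% and 5.57% in FG 1, 2 and 3, and 5.16%, 5.48% and 6.93% in MG 1, 2 and 3. All gametophyte libraries exceeded all SP libraries, and FG and MG overlapped. The means were 1% ± 1.72, 4.80% ± 0.951 and 5.86% ± 0.939 (SD, n = 3; exact permutation p = 0.1 for FG and for MG against SP, 0.4 for MG against FG). Without SP 1 the mean of SP was 0.0102%.

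Long runs were present in SP 1 and in all gametophytes, and none was listed in SP 2 or SP 3. Runs of at least 10 sites numbered 1053 in SP 1. FG 1, 2 and 3 had 3006, 1825 and 3929, and MG 1, 2 and 3 had 2824, 3550 and 4856. They held 2.24% of the CHH sites of SP 1 and 1.52 to 2.23% of those of the gametophytes, so SP 1 lay slightly above the gametophyte range. The largest run held 184 sites in SP 1, 5 and 7 in SP 2 and SP 3, and 137 to 326 in the gametophytes.

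**Figure D4:**
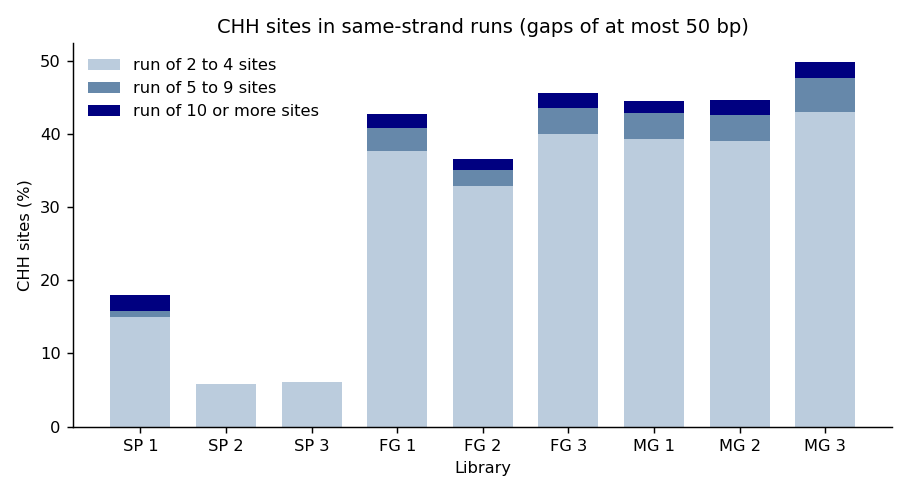
Stacked bars of the percent of CHH sites in same-strand runs of 2 to 4, 5 to 9 and 10 or more sites in each library. Runs of at least 2 sites hold 36.6 to 49.9% of the sites in the gametophytes, 18.0% in SP 1, and 5.77% and 6.08% in SP 2 and SP 3.

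Runs of at least 10 sites fell into 3 kinds by their reads. In the first, every site had 1 methylated read; it counted 714 runs in SP 1, with 1146, 801 and 1279 for FG and 948, 1225 and 1576 for MG. These runs spanned a median of 107.5 to 128 bp, were covered by a median of 7 to 9 reads, and held 10.2 to 49.3 same-strand sites for each CHH site on the opposite strand within them. No opposite-strand CHH site lay within 51.3 to 85.2% of them. In the second kind the methylation level, methylated reads over all reads, reached 0.5 or more over the run. It counted 126 runs in SP 1, with 37, 44 and 115 for FG and 20, 18 and 72 for MG. These held only 1.41 to 2.44 same-strand sites for each opposite-strand site. The remaining runs were covered by a median of 19 to 41 reads at median levels of 0.0294 to 0.0566 and held 3.26 to 4.70.

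Sites in long runs were listed in another library of their stage more often than single sites. In the gametophytes, 5.43 to 8.08% of sites outside runs and 18.1 to 28.5% of sites in runs of at least 10 were listed in another library of the stage. Among sites with 1 methylated read and a coverage of 5 to 12 reads, these shares stood in the opposite order in all 6 libraries. They were 4.75 to 7.38% for sites outside runs and 4.21 to 6.28% for runs of at least 10. In runs of 5 to 9 sites they were 5.19 to 8.03%, above those of sites outside runs in each library. In SP 1 the shares over all sites were 0.542% and 0.757%.

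The named runs were the largest of each stage, at most 1 a scaffold, and positions are on the scaffolds of the authors' assembly, which no annotation used here covers. The largest of SP lay on the minus strand of scaffold 9758, positions 25 to 1103. It held 184 CHH sites in SP 1 at a level of 0.973 and 184 in FG 1 at 0.996. It held 153 in FG 2 at 0.961, 112 in MG 1 at 0.954 and 110 in MG 2 at 0.927. SP 2, SP 3, FG 3 and MG 3 listed no site there on either strand. The 4 empty libraries were those with a plus-strand share of at least 50.5%.

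**Figure D5:**
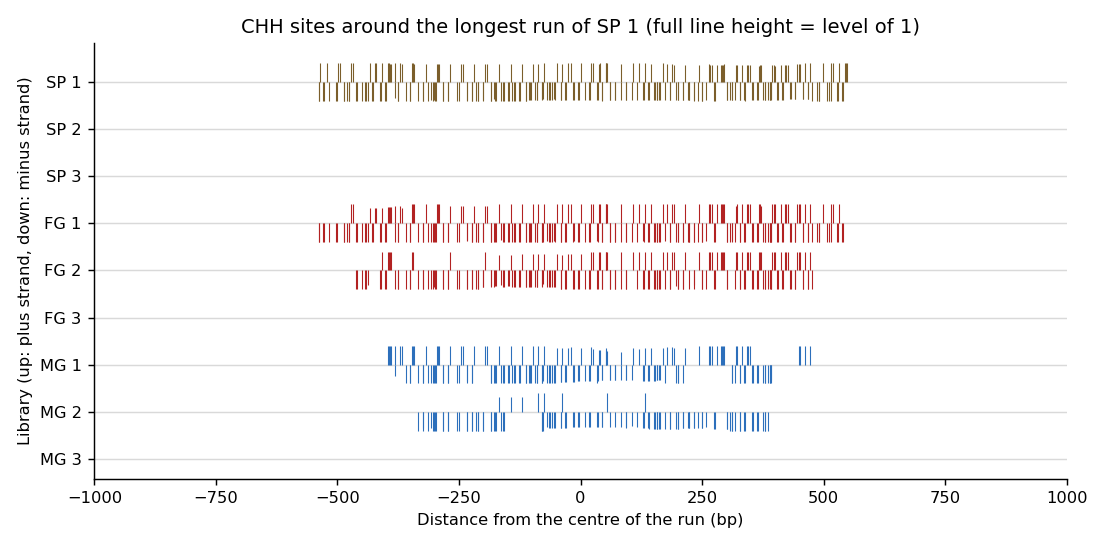
Listed CHH sites by distance in bp from the centre of the longest run of SP 1 in each library, with lines upward for the plus and downward for the minus strand and a height in proportion to the methylation level. Tall lines on both strands stand in SP 1, FG 1, FG 2, MG 1 and MG 2, and the other 4 libraries are empty.

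The same 4 libraries were also without sites in 2 other runs of high level. On scaffold 5821, positions 3516 to 4467, minus strand, SP 1 held 135 sites at 0.964, FG 1 107 at 0.963, FG 2 58 at 0.953, MG 1 63 at 0.972 and MG 2 15 at 0.867. On scaffold 9143, positions 210 to 1289, plus strand, SP 1 held 179 sites at 0.966, FG 1 86 at 0.944 and MG 1 4 at 1, and FG 2 listed 31 on the minus strand only. On scaffold 9143 MG 2 listed no site either. The division was not general: on scaffold 11485 FG 3 held 22 CHH sites, all at a level of 0.5 or more. Over the whole of scaffold 9758, all of the 279, 272, 220, 179 and 118 sites listed in SP 1, FG 1, FG 2, MG 1 and MG 2 had a level of 0.5 or more. Whether the scaffolds with runs of high level are kelp DNA was not tested.

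FG 3 and MG 3 held most of the sites of 2 further runs of high level. On scaffold 6715, positions 1911 to 2504, plus strand, FG 3 held 129 sites at 0.997 and MG 3 112 at 0.993, while the only sites of the other libraries were 17 of SP 1 on the minus strand. On scaffold 2215, positions 15918 to 17503, plus strand, FG 3 held 326 sites at 0.998 from 116531 reads, the largest run of all, and MG 3 held 27 at 1 from 161 reads. No other library listed a CHH site there. Both scaffolds had sites of high level in other libraries: SP 1 listed 92 on scaffold 6715, at a level of 0.998, and FG 2 listed 104 on scaffold 2215, at 0.978. With a median coverage of 359.5 reads in FG 3 against 6 in MG 3, the same positions differed in depth far more than in level.

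The region of a deep run of low level held CHH sites in all 9 libraries. In SP 2 and SP 3, whose largest runs held 5 and 7 sites, these sites did not form a single run. On scaffold 2915, positions 16546 to 18329, plus strand, SP 1, 2 and 3 listed 96, 10 and 8 CHH sites at levels of 0.00198, 0.00453 and 0.00458. FG 1, 2 and 3 listed 164, 203 and 277 sites at 0.00624, 0.00645 and 0.0260, and MG 1, 2 and 3 listed 164, 183 and 258 at 0.00653, 0.00599 and 0.0132. The median coverage of these sites was 713.5 to 1344 reads. All gametophytes lay above all SP libraries in sites and in level, FG 3 and MG 3 highest.

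Runs of at least 5 sites overlapped in all 3 libraries of a stage in 218 regions in FG and 392 in MG. At coverage of at most 50 reads the largest of these in FG by its smallest library lay on scaffold 2915, positions 12319 to 12441, minus strand, with 16, 19 and 20 sites in FG 1, 2 and 3 at levels of 0.330, 0.922 and 0.964. MG 3 held 14 sites there at 0.991, and the other 5 libraries none. In MG it lay on scaffold 301, positions 275257 to 275381, minus strand, with 10, 9 and 9 sites at 0.0649, 0.0385 and 0.0546. FG 1, 2 and 3 held 6, 4 and 2 sites in it, SP 1 held 1, and SP 2 and SP 3 none. The others, on scaffolds 3504 and 2060 in FG and 3504 and 230 in MG, had levels of 0.0223 to 0.0386 in their stage.

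When sites of all contexts were joined into same-strand runs, the longest runs were richer in CHH in the gametophytes and SP 1. In the gametophytes CHH made up 56.0 to 58.1% of sites outside runs and 62.1 to 64.2% of sites in runs of at least 10, while CpG went from 21.9 to 24.4% down to 13.9 to 16.4%. In SP 1 CHH went from 53.1 to 58.8%. SP 2 and SP 3 had only 20 and 22 sites of any context in such runs. Of these, 15% and 13.6% were CHH, below the 28.8% and 28.4% of sites outside runs.

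CHH methylated reads were then compared between stages in bins of 10 kb by the quasi-likelihood test of edgeR, where each library's mapped reads set its size. Of 55481 bins tested for FG against SP, 54548 (98.3%) were higher and 54 (0.0973%) lower in FG at a Benjamini-Hochberg adjusted p under 0.05, and in 97.8% of bins the libraries did not overlap. For MG against SP, 55925 (99%) of 56474 bins were higher and 34 (0.0602%) lower, and 98.6% did not overlap. For MG against FG, 4739 (8.29%) of 57196 bins were higher and 1095 (1.91%) lower, and 19.7% did not overlap. The higher CHH reads of gametophytes were thus spread over nearly all bins, with median log2 differences of 2.89 for FG and 3.08 for MG over SP and of 0.17 for MG over FG. With SP 1 as the only SP library the median log2 differences were smaller, 1.95 for FG and 2.14 for MG over SP.

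The 2 comparisons with SP share the SP libraries, and their calls rest on the scaling. With edgeR's TMM scaling, which centres the bins, FG against SP gave 25 higher and 242 lower bins, MG against SP gave 1094 and 691, and MG against FG gave 4511 and 2455. Without SP 1, FG was lower than SP in 16 bins and MG in 0 (0 also at an unadjusted p under 0.05). DESeq2 with size factors from mapped reads also gave 0 lower bins for MG against SP, at an adjusted and at an unadjusted p under 0.05. A single strand gave 3602 (plus) or 3626 (minus) bins higher and 692 or 727 lower in MG than in FG. Runs seldom filled a bin from 1 strand: of bins with at least 20 CHH sites, 0.243 to 0.780% in the gametophytes, 0.709 and 1.03% in SP 2 and SP 3 and 2.21% in SP 1 had at least 80% of their sites on 1 strand.

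Among called bins whose libraries did not overlap, those with the largest fitted change were mostly at 0 in 1 stage. On scaffold 1304, positions 90001 to 100000, MG 1, 2 and 3 had 858, 985 and 792 CHH methylated reads, SP 1, 2 and 3 had 177, 40 and 37, and FG 1, 2 and 3 had none. MG was at least 825-fold higher than FG (adjusted p = 1.32e-37) and FG at least 70.7-fold lower than SP (adjusted p = 1.28e-07), each against a floor of 3 reads over the FG libraries and per mapped read. The bin at positions 110001 to 120000 of the same scaffold was alike, with 783, 819 and 906 reads in MG, 149, 37 and 42 in SP and none in FG. Reads lay on both strands in each library that had any. Males and sporophytes thus had CHH methylated reads in both bins, and the female libraries listed none. Since the lists leave out unmethylated cytosines, whether a library without reads held this sequence was not tested, and here and in the bins that follow a lack of methylation and a lack of the sequence cannot be told apart.

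The largest falls from FG to MG were on scaffold 3828, positions 1 to 10000, with 3, 218 and 141 reads in FG 1, 2 and 3, and scaffold 2653, positions 10001 to 20000, with 14, 24 and 84, where MG and SP had none. MG was at least 128-fold and at least 43.3-fold lower there (adjusted p = 5.22e-18 and 2.86e-13). In MG alone, scaffold 477, positions 30001 to 40000, had 77, 81 and 104 reads and scaffold 1211, positions 30001 to 40000, had 57, 67 and 72, while SP and FG had none. These were at least 98.2-fold and at least 73.5-fold higher than SP (adjusted p = 1.63e-09 and 3.03e-08). For FG against SP the largest rise was on scaffold 2215, positions 20001 to 30000, where 1, 267 and 23420 reads in FG 1, 2 and 3 came almost wholly from FG 3 (adjusted p = 0.00244), the library with the high-level run on that scaffold.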

How the data were processed

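DNA methylation was measured by WGBS in 9 libraries, grouped by title into SP, FG and MG. After trimming, the authors aligned reads with Bismark to their assembled scaffolds and deposited a list of called cytosines for each library. Its deposited counts, not normalized, are the reads with and without methylation at each listed cytosine, and the deposited fraction is the methylation level. The deposited p-values were not used. FastQC and Bismark are named in the submitters' processing notes. Cytosines without a call are absent, so an unlisted position can be unmethylated or uncovered.

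Neighbours, runs, local excess and the known bases were computed with Python 3.11.15, numpy 2.4.6, numba 0.67.0, pandas 2.3.3, scipy 1.17.1 and matplotlib 3.10.9. A run level is the methylated over all reads of its listed sites. Bins of 10 kb with at least 10 CHH methylated reads over 6 libraries were tested with edgeR 4.0.16 (R 4.3.3, limma 3.58.1), with the study's mapped reads as library sizes and DESeq2 1.42.0 as an alternative. The scripts were tested on simulated data. Members, lists and tests were chosen with earlier results of these data known. Regions named were, per stage, the 3 runs with the most sites (also without sites over 50 reads), the 3 regions with runs of at least 5 sites in all 3 libraries of a gametophyte stage, and, per comparison and direction, the 2 bins with the largest change among called bins without overlap. Not all are named. The replicate numbers are not shown to pair the libraries. Of the 9 same-numbered pairs, 1 correlated above 0.1, although each of the 9 libraries correlated best with its own number. Neighbours at 4 to 50 bp, the base before the site and SP without SP 2 and SP 3 were added after seeing the data.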

Additional observations from a re-analysis of the deposited data

Results flagged for a closer look

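A library that stood far from the other 8 was looked for in 7 measures of CHH neighbours, with Dixon's test at the 95% level, which chance passes in about 1 in 20 groups. SP 1 stood out in 2 of them. Its same-strand excess at 1 to 50 bp was 3.32, where the other libraries had 1.96 to 2.37. Its log2 of own-library over other-library excess on the same strand was 1.34, against 0.50 to 0.76 in the others. SP 1 differed from SP 2 and SP 3 also in its number of CHH sites, in the base before them and in its runs of high level, and the part of these differences in the 2 values was not tested.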

How the results depend on the processing

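The strand difference of CHH neighbours, as a mean over the libraries, kept its direction and its side of the threshold in all 20 alternatives run, also without SP 2 and SP 3, although within 10 bp SP 2 and SP 3 themselves turned (-0.0615 and -0.17). The stage comparisons turned direction in 24 of 312. At 2 or more methylated reads, SP 1 had the highest shares and the differences turned: same-strand neighbours came to -1.55 (FG minus SP) and -1.33 percentage points (MG minus SP), opposite-strand neighbours to -0.18 (FG minus SP), and runs of 5 or more to -5.16, -6.54 and -1.38 (MG minus FG); runs within 10 bp gave -0.0174 for MG minus FG. The log2 strand ratio of FG minus SP (0.01) became -0.0616 within 100 bp, -0.19 at 2 or more methylated reads, -0.21 at 4 to 50 bp, -0.0220 below a level of 0.5, -0.0162 at exactly 1 methylated read and -0.36 with SP 1 as the only SP library. MG minus SP (-0.06) became 0.70 within 10 bp, 0.13 within 25 bp and 0.0427 at a coverage of at least 10, where MG minus FG became 0.0193. The same-strand excess of FG minus SP (-0.32) became 0.0841 within 10 bp. Leaving out 1 library gave -0.0902 to 0.20, -0.16 to 0.13 and -0.54 to 0.0783 for the log2 ratio of FG minus SP and of MG minus SP and the same-strand excess of FG minus SP, and the upper end of each came without SP 1. The cause was not tested.

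CHH minus CHG became -0.27 at 3 to 50 bp, -0.0425 at 2 or more methylated reads and 0.15 without SP 2 and SP 3. CHH minus CpG lost its call at a coverage of at most 50 (-0.0719), at 2 or more methylated reads (-0.15) and without SP 2 and SP 3 (-0.0789). The own-library over other-library excess on the opposite strand lost it at a coverage of at least 10 (0.0471), at 2 or more methylated reads (0.0674) and without SP 2 and SP 3 (0.0129). Runs of 5 or more held 2.18% (FG) and 2.41% (MG) at gaps of at most 25 bp and 12.3% and 16.1% at 100 bp. G before CHH sites came to 43.9% and 45.1% in FG and MG with bases from every library of the other stages, SP included. It came to 31.0% and 32.2% at 2 or more methylated reads.

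Counts of called bins moved most. For FG against SP, higher bins numbered 25 with TMM, 9 with DESeq2's own size factors, 12681 at 2 or more methylated reads and 372 at a coverage of at least 10. Lower bins numbered 242 with TMM, 25 with DESeq2 and mapped reads, 118 without a filter, 17 at 2 or more methylated reads, 23 at a coverage of at least 10 and 88 with SP 1 alone. For MG against SP, higher bins numbered 1094, 131, 21355 and 17719 in the order given for FG, and lower bins 691 with TMM, 170 and 0 with DESeq2 (own and mapped), 3 from sites without same-strand neighbour and 19 at a coverage of at least 10. For MG against FG, higher bins numbered 3158 from sites without neighbour and 163 at 2 or more methylated reads, and lower bins 2455 with TMM, 1693 with DESeq2, 73 at 2 or more methylated reads, 576 at a coverage of at least 10, and 692 and 727 on the plus and minus strand. Without 1 library, lower bins ranged from 16 to 59 (FG against SP) and from 0 to 40 (MG against SP).

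The replicate numbers are not shown to pair the libraries (correlations of 0.003 to 0.195 between same numbers), although each of the 9 libraries correlated best with its own number. With a replicate block, FG against SP had 52989 higher and 38 lower bins, MG against SP 54642 and 31, and MG against FG 5648 and 1629, and the differences of single values kept their direction. At 7 to 10 reads a site with 1 methylated read fixes its level poorly, and a site unlisted elsewhere is not shown to be unmethylated there.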
